A study of Mus with 21 samples.

Results

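Cd163 and 7 other genes that mark border-associated macrophages (Mrc1, Lyve1, Pf4, F13a1, Cbr2, Stab1 and Ms4a7) were followed across 4 genotypes of embryonic mouse brain, as 8 of the 55335 genes counted. Cd163 was chosen because its counts were low in Nipbl+/- and double heterozygous brains, so its levels there are given as a description without a test. The other 7 were chosen by what they mark, with earlier results of these data known. The question was whether the fall of Cd163 extends to them. All 8 genes passed the filter on low counts, which left 30553 genes to test.

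Border-associated macrophages line the meninges, the choroid plexus and the spaces around brain vessels, while microglia are the macrophages inside the neural tissue. Both arise from yolk sac progenitors and depend on signalling through the Csf1 receptor. Cd163 is the macrophage receptor that takes up haemoglobin bound to haptoglobin. It is restricted to macrophages and monocytes, and in the healthy brain it separates border macrophages from microglia.

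The libraries were poly(A) RNA of whole brains from female embryos at E17.5. The 5 WT embryos carried both alleles of both genes (Wapl +/+; Nipbl +/+). The 3 Nipbl+/- embryos were Wapl +/+; Nipbl +/delta, where the mutant allele is a complete loss of function made by Cre recombination of a floxed allele in the germ line of the sire. The 7 Wapl delta/+ embryos were Nipbl +/+ with 1 Wapl allele lacking the promoter and the first exons, a deletion first made with E2a-Cre and passed on through the germ line. The 6 double heterozygotes carried both mutations. Every cell of a mutant embryo is heterozygous, so no group isolates macrophages, and the labels do not say which embryos were littermates. Whether the meninges stayed on the dissected brains is not given in the sources used here. NIPBL loads cohesin, the ring complex that folds chromosomes, onto DNA and WAPL takes it off.

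The targeted genes matched the labels. Nipbl stood at 54.3% ± 4.52 of the WT mean (SD, n = 3) in Nipbl+/- brains and at 54.8% ± 1.79 (n = 6) in double heterozygotes. Wapl stood at 46.7% ± 4.51 (n = 7) in Wapl delta/+ brains and at 49.3% ± 1.90 (n = 6) in double heterozygotes. Totals ran from 25682566 to 35818767 counts per library. The mitochondrial transcript mt-Nd3 split the libraries into 12 with 0 to 6 counts and 9 with 52 to 106 counts. All Nipbl+/- libraries lay in the low set, and in carriers of the Wapl deletion the set followed the order in which the genotype label writes the 2 Wapl alleles. The paper describes crosses in which either the dam or the sire carried the Wapl deletion, and the cross of each embryo is not given. Whether the sets follow the crosses was not tested. What the 2 sets are is not given in the sources used here, so results within each set are given where they bear on a gene.

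Cd163 (ENSMUSG00000008845, chr6:124304636-124330529, GRCm38.p6) was moderately low in whole brain. Its normalized counts, which are counts scaled by TMM factors to the mean library size, were 110.3, 96.5, 104.1, 124.2 and 115.0 in the WT libraries. The 3 Nipbl+/- libraries gave 26.8, 35.0 and 24.4. All 3 lay far below the lowest WT library, at a mean of 26.1% ± 5.05 of WT. Every Nipbl+/- library was below every WT library in 6.90% of all genes tested. The log2 fold change was -1.93 (SE 0.158), with a 95% confidence interval from -2.27 to -1.60. Cd163 was chosen for low counts in these libraries and in double heterozygotes. Its intervals here and below are therefore descriptions and not tests, and its falls may be overstated.

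In double heterozygotes Cd163 ran from 20.02 to 56.5, with a median of 38.3. Every one of the 6 libraries was below every WT library, a pattern seen in 2.29% of all genes tested. The mean was 35.3% ± 11.6 of WT, with a log2 fold change of -1.49 (SE 0.166). The range enclosed that of the Nipbl+/- libraries, and the difference of double heterozygotes from Nipbl+/- was 0.44 on the log2 scale (SE 0.265, 95% confidence interval -0.13 to 0.999). The values were not alike in the mt-Nd3 sets, and the difference between the sets was not tested. Among low libraries the log2 fold change of double heterozygotes against WT was -1.18 (SE 0.155, 4 against 3), and among high libraries it was -2.17 (SE 0.236, 2 against 2).

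Wapl delta/+ brains were not uniform for Cd163. They ran from 64.9 to 133.3 with a median of 78.7, and none of the 7 lay inside the WT range: 5 were below all WT libraries and 2 were above all of them. This comparison was tested for Cd163, although its WT libraries are those on which the gene was chosen, so a fall may be overstated. The log2 fold change was -0.25 (SE 0.150), which did not pass the edgeR quasi-likelihood test (adjusted p = 0.450). The coefficient of variation was 29.1%, against 9.59% in WT. Both libraries above WT belonged to the high mt-Nd3 set, which also held 3 of the 5 below WT. All double heterozygotes were below all Wapl delta/+ libraries, as in 0.717% of all genes tested, with a log2 fold change of -1.24 (SE 0.206). That difference was -0.71 (SE 0.204) in the low set and -1.92 (SE 0.302) in the high set. By group mean, the order of Cd163 was WT, Wapl delta/+, double heterozygote and Nipbl+/-, with overlapping ranges only between the first pair and between the last pair.

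**Figure D1:**
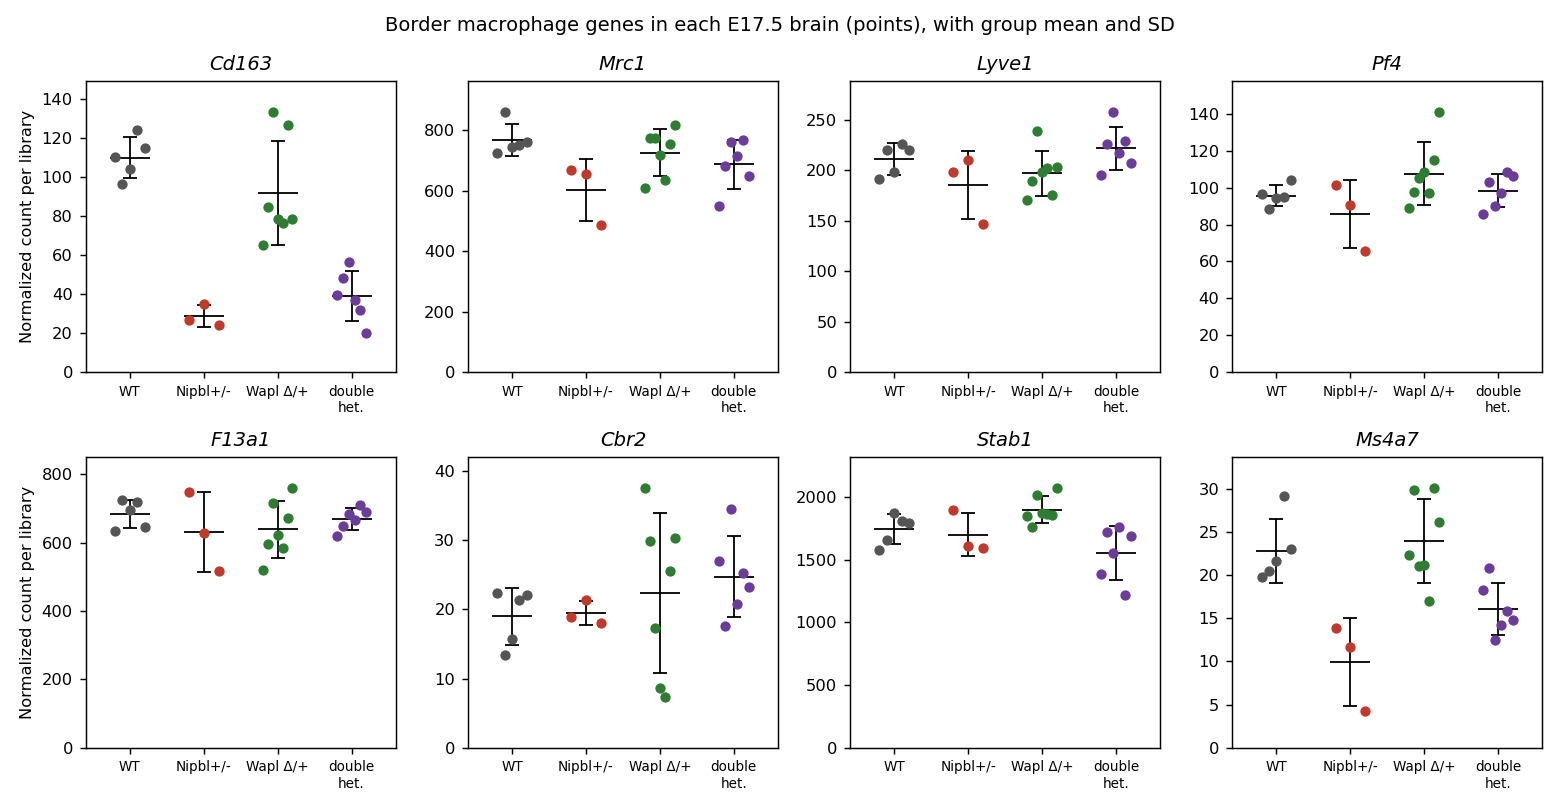
Normalized counts of the 8 border macrophage genes (y axis, from 0) in each brain, as points by genotype (x axis), with the group mean and SD as bars. Cd163 lies at 24.4 to 35.0 in Nipbl+/- and 20.02 to 56.5 in double heterozygous brains, below the WT range of 96.5 to 124.2, while Lyve1, Pf4, F13a1, Cbr2 and Stab1 overlap WT in every group.

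Of the 7 other border macrophage genes, 2 were lower in Nipbl+/- brains than in WT (Mrc1 and Ms4a7), none was higher, and 5 did not pass the test. A gene is called here when its adjusted p from edgeR, over all genes tested, is below 0.10. In this comparison 11.2% of all genes tested were called, and 6.96% were called lower. The median log2 fold change of the 7 was -0.16, beside -0.01 over all genes tested.

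Among the endocytic receptors, Mrc1 (chr2:14229414-14332023, overlapping Mir511) encodes the macrophage mannose receptor CD206. It gave 724.5, 858.9, 744.2, 751.0 and 758.9 normalized counts in WT and 667.1, 653.2 and 485.4 in Nipbl+/- brains. All 3 mutant libraries were below all WT libraries, at 78.4% ± 13.2 of the WT mean. The log2 fold change was -0.35 (SE 0.0835, adjusted p = 0.0133 by edgeR). Without Nipbl+/- replicate 3, the lowest library, it was -0.21 and the gene was still called (adjusted p = 0.0785).

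Lyve1 (chr7:110850607-110862953) encodes a hyaluronan receptor of lymphatic endothelium and of perivascular and meningeal macrophages. It gave 191.0, 220.6, 198.3, 226.1 and 220.0 in WT and 198.8, 210.0 and 147.3 in Nipbl+/- brains. Of the 3 mutant libraries, 2 lay within the WT range and 1 below it. The log2 fold change of -0.19 (SE 0.110) did not pass the edgeR test (adjusted p = 0.372).

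Stab1 encodes stabilin-1, a scavenger receptor of macrophages and sinusoidal endothelium. WT libraries gave 1579.0, 1659.4, 1871.4, 1807.6 and 1789.8, and Nipbl+/- libraries gave 1895.0, 1604.9 and 1590.7. The groups overlapped and the log2 fold change was -0.04 (SE 0.0616, adjusted p = 0.777 by edgeR).

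Of the secreted products, Pf4 (chr5:90772435-90773383), the chemokine platelet factor 4, gave 96.8, 88.3, 94.3, 95.1 and 104.0 in WT and 101.4, 90.4 and 65.7 in Nipbl+/- brains. F13a1 (chr13:36867178-37050244, overlapping Gm30489), the catalytic A subunit of the transglutaminase factor XIII, gave 634.8, 725.5, 695.1, 719.0 and 645.9 in WT and 748.7, 628.0 and 516.1 in Nipbl+/- brains. Both overlapped WT. Their log2 fold changes were -0.16 (SE 0.136) for Pf4 and -0.12 (SE 0.0856) for F13a1, and neither passed the edgeR test (adjusted p = 0.591 and 0.491). Without Nipbl+/- replicate 3 the values were 0.01 and 0.02.

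The 2 scarcest members differed from each other. Cbr2 (chr11:120729485-120732025), a carbonyl reductase, gave 13.3 to 22.4 in WT and 18.0 to 21.4 in Nipbl+/- brains, inside the WT range, with a log2 fold change of 0.03 (SE 0.237, adjusted p = 0.969 by edgeR). Ms4a7 (chr19:11321039-11336146), a membrane protein of the 4-transmembrane MS4A family, gave 19.7, 20.5, 21.6, 29.1 and 23.0 in WT and 13.9, 11.7 and 4.2 in Nipbl+/- brains. All 3 mutant libraries were below WT, at 43.6% ± 22.2 of the mean, and the log2 fold change was -1.18 (SE 0.302, adjusted p = 0.0213 by edgeR). The call rests on 4 to 14 raw counts per mutant library. It was lost without Nipbl+/- replicate 3 (-0.82, adjusted p = 0.108) and among low mt-Nd3 libraries alone (-1.03, adjusted p = 0.127).

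In all, 2 of the 7 had every Nipbl+/- library below every WT library, as did 6.90% of all genes tested. Nipbl+/- replicate 3 was the lowest of the 3 for Cd163 and for each of the other 7 genes. The 95% confidence intervals limit how far the other genes could have fallen. Their lower bounds were -0.53 for Mrc1, -0.42 for Lyve1, -0.44 for Pf4, -0.30 for F13a1, -0.47 for Cbr2 and -0.17 for Stab1. The interval of Ms4a7 ran from -1.81 to -0.54. Since Cd163 was chosen on these libraries, its own interval is no yardstick for a test against them.

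**Figure D2:**
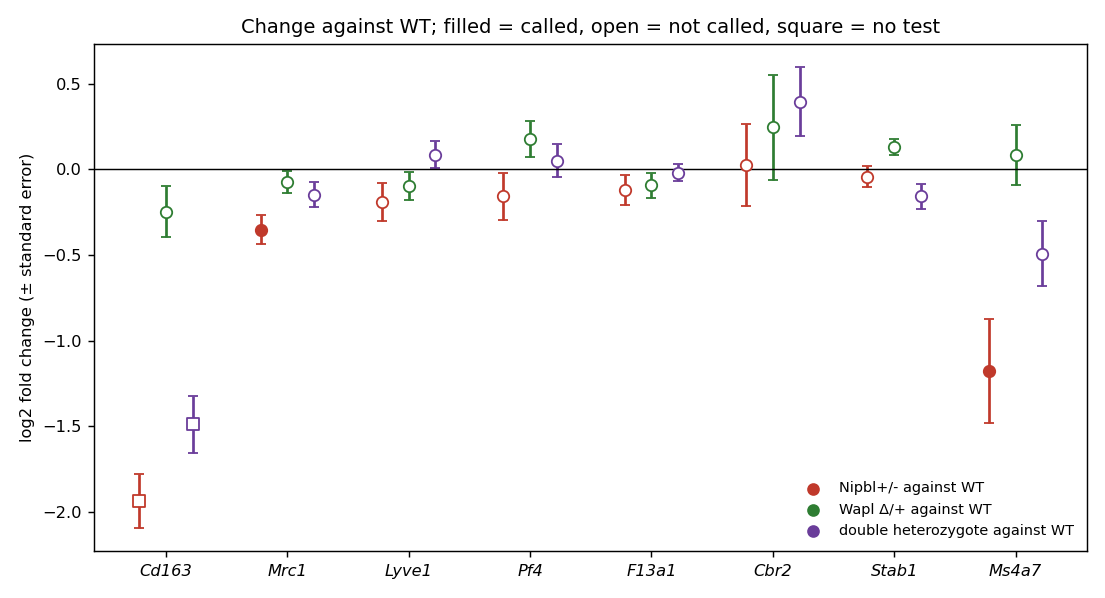
Log2 fold change against WT (y axis, bars show the standard error) of the 8 genes (x axis) in the 3 mutant groups, with filled points for calls, open circles for genes not called and squares for Cd163 where it was not tested. Cd163 lies at -1.93 and -1.49 in the 2 groups with the Nipbl mutation, Ms4a7 at -1.18 and -0.49, and the other 6 genes between -0.35 and 0.39.

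Double heterozygotes gave 0 of 7 calls against WT by edgeR, and also 0 by DESeq2, where 3.28% of all genes were called by edgeR. At an unadjusted edgeR p below 0.05 there were 2, Ms4a7 and Stab1. Ms4a7 ran from 12.5 to 20.9 with a median of 15.3, and 5 of 6 libraries lay below all WT libraries. Its log2 fold change was -0.49 (SE 0.189, adjusted p = 0.234 by edgeR). None of the 7 had all double heterozygotes below all WT libraries, a pattern seen in 2.29% of all genes tested.

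Mrc1 ran from 548.2 to 767.1 in double heterozygotes, with a median of 698.2 and 4 of 6 libraries below all WT libraries. The log2 fold change was -0.15 (SE 0.0723, adjusted p = 0.382 by edgeR). Lyve1 ran from 195.6 to 257.7 (log2 fold change 0.08, SE 0.0794), Pf4 from 85.7 to 108.4 (0.05, SE 0.0945) and F13a1 from 618.5 to 709.2 (-0.02, SE 0.0515). Cbr2 ran from 17.6 to 34.5 (0.39, SE 0.203). All of these groups overlapped WT, as did Stab1, at 1215.6 to 1757.1 (-0.16, SE 0.0740, adjusted p = 0.357 by edgeR).

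Against Nipbl+/-, double heterozygotes gave 0 of 7 calls by edgeR and by DESeq2, and 1 gene, Lyve1, had an unadjusted p below 0.05 (log2 fold change 0.26, SE 0.118, adjusted p = 0.971). Only 0.00655% of all genes were called in that comparison. For Mrc1 the difference was 0.19 (SE 0.111) and for Ms4a7 it was 0.67 (SE 0.320). The Ms4a7 interval, from -0.01 to 1.35, leaves the size of that difference wide.

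In the fit of all 4 groups, the interaction of the 2 mutations, meaning the departure from adding their log2 effects, was called for 0 of 7 genes by edgeR and by DESeq2. Over all genes edgeR called 0% while 4220 had an unadjusted p below 0.05, and DESeq2 called 18. Lyve1 (0.33, SE 0.142) and Stab1 (-0.28, SE 0.110) were the 2 members with an unadjusted p below 0.05, at adjusted p = 0.292 and 0.250 by edgeR. Cd163 gave 0.66 (SE 0.319), without a test, and 1.13 (SE 0.274) in the low mt-Nd3 set.

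In Wapl delta/+ brains 0 of the 7 genes were called against WT by edgeR or DESeq2, where edgeR called 2.22% of all genes. Stab1 was the 1 gene with an unadjusted p below 0.05, at a log2 fold change of 0.13 (SE 0.0474, adjusted p = 0.191 by edgeR). It ran from 1760.9 to 2071.3, with 2 of 7 libraries above all WT libraries. The others lay between -0.10 for Lyve1 and 0.25 for Cbr2. Cbr2 was the most variable, from 7.3 to 37.5 normalized counts, and both libraries under 10 came from the high mt-Nd3 set.

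Stab1 was the 1 member called between double heterozygotes and Wapl delta/+ brains, where edgeR called 1.02% of all genes. Double heterozygotes ran from 1215.6 to 1757.1 and Wapl delta/+ libraries from 1760.9 to 2071.3. All double heterozygotes were below all Wapl delta/+ libraries, as in 0.717% of all genes tested, with the nearest libraries less than 4 counts apart. The log2 fold change was -0.28 (SE 0.0688, adjusted p = 0.0705 by edgeR). Leaving out any 1 of 6 of the 13 libraries ended the call, with adjusted p up to 0.188 (Wapl delta/+ replicates 3, 4, 6 and 7 and double heterozygote replicates 1 and 3). It was also not called within the low set (-0.17) or the high set (-0.41). Stab1 (chr14:31139017-31168651) lies 3.50 Mb from Wapl (chr14:34672379-34747983). Both groups compared here carry the targeted chromosome, while WT and Nipbl+/- brains do not. Whether that position bears on any difference in Stab1 was not tested. Stab1 overlaps Nt5dc2 in the annotation. Ms4a7, the next member, was lower by -0.58 (SE 0.181), with an adjusted p of 0.219 by edgeR.

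The level of Cd163 was also taken relative to the summed CPM (counts scaled to library size) of the other 7 genes in the same library. Set against a WT mean of 100%, the ratio was 28.8% ± 5.71 (n = 3) in Nipbl+/- brains, with a range of 23.7% to 34.9%. In double heterozygotes it was 38.3% ± 12.1 (n = 6), from 19.0% to 53.5%. WT libraries ran from 86.5% to 109%, so none overlapped either group. Cd163 was chosen for its low counts in both of these groups, so that gap is a description and not a test. Wapl delta/+ libraries ran from 62.2% to 112%. The summed level itself was 91.2% ± 11.5 of WT in Nipbl+/-, 102% ± 7.59 in Wapl delta/+ and 92.4% ± 6.78 in double heterozygous brains, with Stab1 the most abundant contributor. In whole-brain RNA, fewer cells of a type and less RNA per cell cannot be told apart for any single gene.

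**Figure D3:**
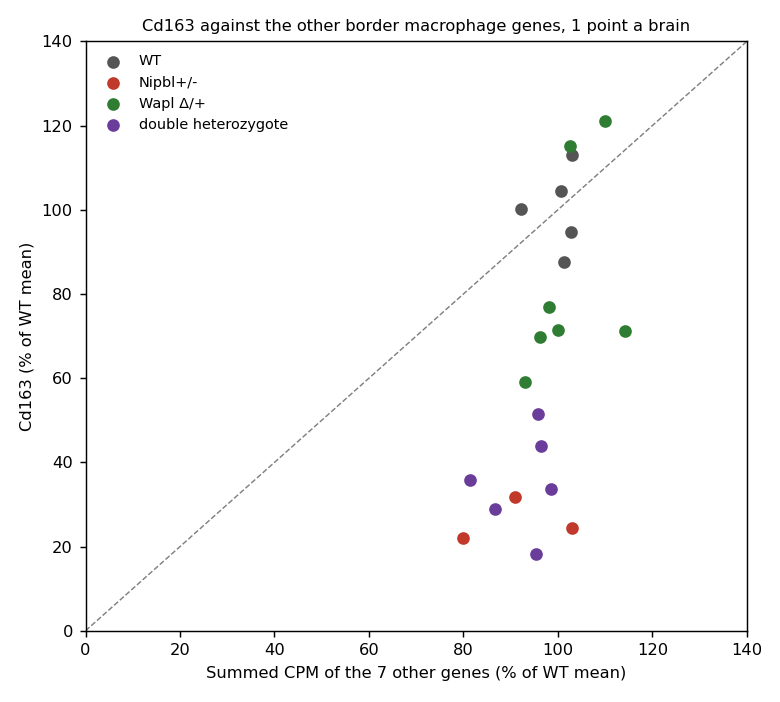
Cd163 (y axis, percent of the WT mean) against the summed CPM of the other 7 genes (x axis, percent of the WT mean), 1 point a brain, coloured by genotype, with a dashed line of equal change. Nipbl+/- and double heterozygous brains lie far under the line, at 79.8% to 103% on the x axis and no more than 51.4% on the y axis. Cd163 was chosen for its low counts in both of these groups.

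A longer list held 24 further tested border macrophage genes. In Nipbl+/- brains 2 were lower and 1 was higher, with a median log2 fold change of -0.18. Of all genes tested, 6.96% were called lower in this comparison. Ednrb, an endothelin receptor also used by astrocyte and neural crest lineages, fell by 0.42 on the log2 scale (SE 0.0481, adjusted p = 7.56e-05 by edgeR). Gas6, a ligand of TAM receptors with many other sources in the brain, gave -0.18 (SE 0.0511, adjusted p = 0.0422). Siglec1, the sialoadhesin of tissue macrophages, was higher at 0.60 (SE 0.189, adjusted p = 0.0604), as were 4.25% of all genes tested. Siglec1 was not called by DESeq2, among low mt-Nd3 libraries alone, or without WT replicates 1, 2 or 5 or Nipbl+/- replicate 1. Gas6 was lost in the low set and without WT replicate 5 or Nipbl+/- replicates 1 or 3, while Ednrb was called in each of these fits.

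Genes of border macrophages in that list that did not pass the test included Folr2, a folate receptor, at 40.3 ± 8.31 normalized counts in Nipbl+/- against 35.3 ± 3.39 in WT brains. Clec10a, a galactose-type lectin, stood at 10.99 ± 3.20 against 15.7 ± 1.99. Its neighbour in the family, Mgl2, stood at 9.32 ± 6.69 against 14.9 ± 4.80. The Ms4a7 relatives Ms4a6b (-0.44, SE 0.183), Ms4a6c (-0.21, SE 0.179), Ms4a6d (-0.21, SE 0.239) and Ms4a4a (-0.13, SE 0.381) were not called, with adjusted p from 0.176 to 0.906 by edgeR.

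Microglia, the macrophages within the tissue, were read by a list of 14 genes. In Nipbl+/- brains 7 were lower and 1 was higher, with a median log2 fold change of -0.37. The shares over all genes tested were 6.96% lower and 4.25% higher. Siglech, a sialic acid lectin, gave 20.7 ± 6.00 against 38.8 ± 5.20 normalized counts in WT (log2 fold change -0.90, SE 0.214, adjusted p = 0.0135 by edgeR). Fcrls, an Fc receptor-like scavenger protein, gave 175.8 ± 35.6 against 321.5 ± 44.4 (-0.87, SE 0.124, adjusted p = 0.00033). Crybb1, a crystallin of immature microglia, gave -0.78 (SE 0.174) and Gpr34, a lysophosphatidylserine receptor, gave -0.71 (SE 0.211).

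P2ry12, the purinergic receptor that marks resting microglia, gave 65.8 ± 13.2 against 106.3 ± 19.7 (-0.69, SE 0.167, adjusted p = 0.0150 by edgeR), and Cx3cr1, the fractalkine receptor, gave 254.3 ± 18.6 against 381.4 ± 48.9 (-0.59, SE 0.0957). Sall1, a transcription factor that neural progenitors also use, was higher at 0.21 (SE 0.0595). Tmem119, another microglia marker, stood at 94.0 ± 22.4 against 94.0 ± 11.1. Left out in turn, single libraries changed the count of lower microglia genes to between 6 and 8, and it was 7 among low mt-Nd3 libraries alone.

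Genes used by all brain macrophages were called lower in 7 of 20 and higher in 1, with a median of -0.28. Beside them, 6.96% of all genes tested were called lower and 4.25% higher. Itgam, the integrin CD11b, gave -0.59 (SE 0.144, adjusted p = 0.0159 by edgeR). Ctss, cathepsin S, gave -0.43 (SE 0.131), C1qb, a complement subunit, gave -0.35 (SE 0.101) and Tyrobp, the DAP12 adaptor, gave -0.33 (SE 0.116). Lyz2, lysozyme of macrophages and granulocytes, was higher at 0.55 (SE 0.147). The count of 7 fell to 1, Itgam, without Nipbl+/- replicate 3, and to 1 among low mt-Nd3 libraries alone. It fell to 2 without WT replicate 4 and to 4 without each of WT replicates 2, 3 and 5 and Nipbl+/- replicate 1.

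**Figure D4:**
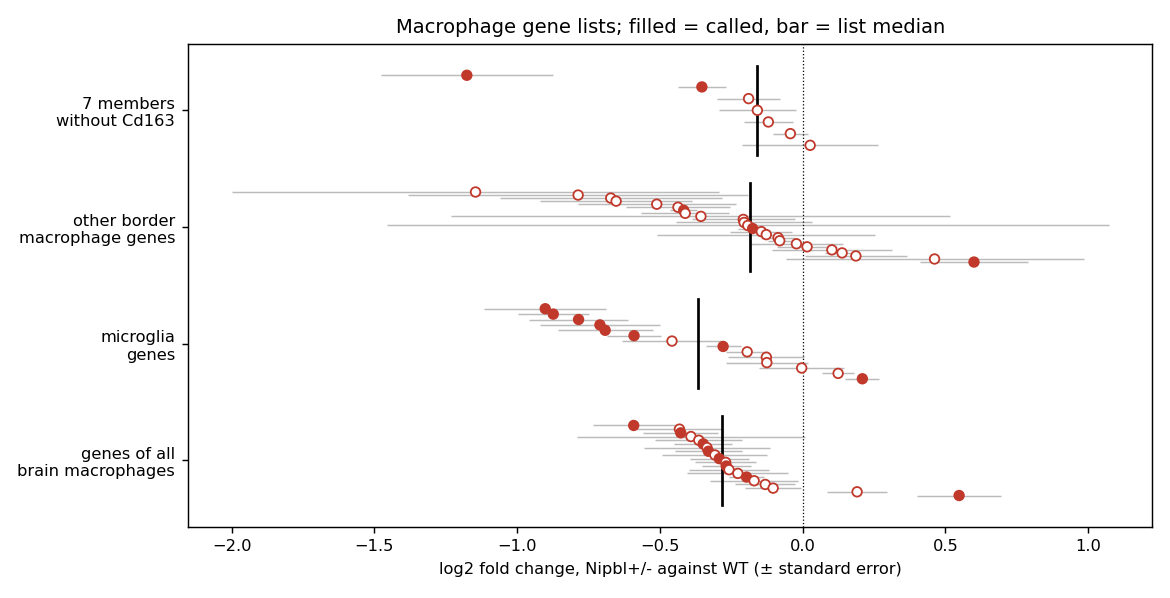
Log2 fold change in Nipbl+/- against WT brains (x axis, grey bars show the standard error) of each gene in 4 macrophage lists, with filled points for calls and a black bar at each list's median. The medians lie at -0.16 for the 7 members, -0.18 for other border macrophage genes, -0.37 for microglia genes and -0.28 for genes of all brain macrophages.

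In double heterozygotes against WT, 1 of 14 microglia genes was called by edgeR, Cx3cr1, at -0.40 (SE 0.0763, adjusted p = 0.0091 by edgeR). DESeq2 called 2 of the 14 lower, and 6 had an unadjusted edgeR p below 0.05. The median log2 fold change of the list was -0.21. Over all 30553 genes, edgeR called 3.28%, and 4123 had an unadjusted p below 0.05. Fcrls gave -0.41 (SE 0.123, adjusted p = 0.101) and Siglech gave -0.26 (SE 0.172, adjusted p = 0.559). Of the 24 other border macrophage genes, Ednrb (-0.32, SE 0.0380) and Gas6 (-0.12, SE 0.0370) were called lower. Of genes of all brain macrophages, 1 of 20 was called, Lyz2, which was higher by 0.49 (SE 0.115). The median of that list was -0.12, and 6 of the 20 had an unadjusted edgeR p below 0.05. In Wapl delta/+ brains 0 of 14 microglia genes and 0 of 20 shared macrophage genes were called by edgeR or DESeq2. Of these, 3 and 1 had an unadjusted edgeR p below 0.05. The 1 border macrophage gene called was Colec12, a scavenger collectin, at 0.17 (SE 0.0428, adjusted p = 0.0666 by edgeR). In that comparison 2.22% of all genes tested were called. Between double heterozygotes and Wapl delta/+ brains edgeR called 311 of all genes tested (1.02%), and 24 and 29 within the low and high mt-Nd3 sets. Lower calls were 2 of 24 other border macrophage genes, 2 of 14 microglia genes and 1 of 20 shared macrophage genes, with 0 higher. Mgl2 was called lower at -1.01 (SE 0.211), with means of 9.63 ± 2.17 and 19.7 ± 4.37 normalized counts. Ednrb, Cx3cr1 and Crybb1 were also lower there, at -0.22, -0.39 and -0.53, and so was Laptm5, a lysosomal membrane protein of blood cells, at -0.24.

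Csf1 receptor signalling supports both kinds of brain macrophage. In Nipbl+/- brains, where 6.96% of all genes tested were called lower, 2 of its 10 genes were lower. Among them was the receptor Csf1r at -0.20 (SE 0.0610, adjusted p = 0.0564 by edgeR). The count was 0 by edgeR without Nipbl+/- replicate 3. Csf1r was also lost without WT replicates 2, 4 or 5 or Nipbl+/- replicate 1 and in the low mt-Nd3 set. The ligand Csf1 was 400.7 ± 17.7 in Nipbl+/- and 449.9 ± 27.6 in WT brains (-0.17, SE 0.0662, adjusted p = 0.133). Csf1 was called higher in Wapl delta/+ brains at 0.22 (SE 0.0601, adjusted p = 0.0907 by edgeR), where 2.22% of all genes tested were called. Csf1 was lower in double heterozygotes against Wapl delta/+ brains at -0.36 (SE 0.0685), where 1.02% of all genes tested were called.

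Of 14 genes that handle haemoglobin, haem and iron beside Cd163, none was called lower in Nipbl+/- brains (6.96% of all genes tested). There 1 was called higher (4.25% of all genes tested). It was Ftl1, the ferritin light chain, at 0.13 (SE 0.0408). Ftl1 was also the 1 call in Wapl delta/+ brains at 0.17 (SE 0.0313), where 2.22% of all genes tested were called. In Nipbl+/- brains the higher count was 0 in the low mt-Nd3 set and without WT replicates 1 or 2, and 2 by DESeq2 and without WT replicate 3, and without Nipbl+/- replicate 1 Slc40a1 was called lower. Hmox1, the inducible haem oxygenase, stood at 162.6 ± 35.0 in Nipbl+/- and 160.2 ± 17.6 in WT brains. Haptoglobin (Hp) was scarce, at 5.70 ± 0.353 and 5.63 ± 2.15. In double heterozygotes the iron exporter Slc40a1 was called lower at -0.27 (SE 0.0613).

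In Nipbl+/- brains 6.96% of all genes tested were called lower and 4.25% higher. Of 14 scavenger receptors tested apart from Cd163, Mrc1 was lower and Mrc2, a collagen-binding relative of fibroblasts, was higher there (0.19, SE 0.0487). The higher count was 0 without Nipbl+/- replicate 1. Stab2, the endothelial relative of Stab1, stood at 36.4 ± 5.72 against 36.2 ± 1.11. Msr1, the class A scavenger receptor, stood at 18.1 ± 2.87 against 23.7 ± 4.47 and was not called (adjusted p = 0.380 by edgeR). In Wapl delta/+ brains, where 2.22% of all genes tested were called, Mrc2 (0.23, SE 0.0522) and Colec12 were higher. In double heterozygotes against WT 0 of the 14 were called by edgeR or DESeq2, with 3 at an unadjusted edgeR p below 0.05.

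Glucocorticoids and interleukin-10 are known inducers of Cd163. Of 12 genes of these responses, 4 were lower and 2 higher in Nipbl+/- brains. Over all genes tested the shares were 6.96% and 4.25%. The glucocorticoid receptor Nr3c1 gave -0.47 (SE 0.0668, adjusted p = 0.000335 by edgeR) and the interleukin-10 receptor chain Il10ra gave -0.52 (SE 0.174, adjusted p = 0.0775). Klf9, a glucocorticoid target, gave -0.52 (SE 0.125), and Sgk1, a kinase of the same response, gave -0.17 (SE 0.0583). Dusp1 (0.23, SE 0.0627) and Socs3 (0.24, SE 0.0777) were higher, and the targets Fkbp5 (-0.00, SE 0.0396) and Tsc22d3 (-0.03, SE 0.0450) were not called. Without Nipbl+/- replicate 3, by DESeq2 and in the low mt-Nd3 set the lower calls were Nr3c1 and Klf9, and without Nipbl+/- replicate 1 Nr3c1 was the 1 lower call. The 2 higher calls became 0 in the low set and without Nipbl+/- replicate 1, and 1 by DESeq2 and without WT replicates 2, 4 or 5 or Nipbl+/- replicate 3. Klf9 was the 1 call by edgeR in double heterozygotes against WT, at -0.38 (SE 0.105). Il10ra was lower in double heterozygotes than in Wapl delta/+ brains at -0.57 (SE 0.145), where 1.02% of all genes tested were called. Whole-brain RNA does not show in which cells these genes changed, and a link of their changes to Cd163 was not tested.

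Other cells that share these markers or border tissues were followed by lists of their own. For Nipbl+/- against WT, 6.96% of all genes tested were called lower and 4.25% higher. Platelets also make Pf4, and 0 of 10 platelet and megakaryocyte genes were called in any comparison by edgeR or DESeq2, with at most 1 at an unadjusted p below 0.05. In Nipbl+/- brains 1 was called higher without WT replicate 5 and 1 without Nipbl+/- replicate 2. Their summed level was 98.1% ± 2.34 of WT in Nipbl+/- brains. Blood endothelial genes (12) gave 2 lower and 2 higher in Nipbl+/- brains, with a sum at 99.0% ± 5.51 of WT, and pericyte genes (8) gave 2 lower. The endothelial counts were 0 lower and 0 higher without Nipbl+/- replicate 1, 4 and 3 without replicate 2, and 0 and 2 without replicate 3. They were 1 and 0 in the low mt-Nd3 set and 1 and 1 without WT replicate 2, and the higher count was 1 by DESeq2 and without WT replicates 1, 4 or 5. Of the pericyte genes Rgs5 was called lower in each of these fits, and it was the 1 lower call by DESeq2, in the low set and without WT replicates 1, 2, 4 or 5 or Nipbl+/- replicate 1. Of 6 lymphatic endothelial genes tested, 3 were lower (Prox1, Reln and Sema3d, which neurons also use) and Mmrn1 was higher, with a sum at 79.3% ± 3.69 of WT. Prox1 was lost without Nipbl+/- replicate 1 and Sema3d without replicate 3.

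The same shares of all genes, 6.96% lower and 4.25% higher, stand beside the next lists for Nipbl+/- brains. Meningeal fibroblast genes (12) gave 1 lower and 1 higher in Nipbl+/- brains. Their summed level there ranged from 92.1% to 140% of WT, against 91.9% to 117% among WT libraries. These counts were 0 and 0 in the low mt-Nd3 set and without Nipbl+/- replicate 3, 0 and 1 by DESeq2 and without WT replicate 2, 1 and 0 without WT replicate 5, 2 and 0 without WT replicate 1 or Nipbl+/- replicate 1, and 1 and 3 without WT replicate 3 or Nipbl+/- replicate 2. In Wapl delta/+ brains, where 2.22% of all genes tested were called, 3 collagens, Col1a1, Col1a2 and Col3a1, were higher by 0.62, 0.38 and 0.35. Their adjusted p was 0.0952, 0.0891 and 0.0381 by edgeR, and DESeq2 called 2 of the 12 genes higher. The sum of the 12 genes ranged from 101% to 171%. Erythroid genes (10) gave 1 call in Nipbl+/- brains, Hbb-y, higher, and their sum ranged from 61.0% to 122% of WT. That list turned on single libraries: without Nipbl+/- replicate 3, 6 were called lower (Hba-a1, Hba-a2, Hbb-bs, Hbb-bt, Alas2 and Slc4a1) and 0 higher, with a median log2 fold change of -0.63 in place of -0.25. The higher call was also 0 by DESeq2, in the low mt-Nd3 set and without WT replicates 1, 2, 3 or 4 or Nipbl+/- replicate 1. Monocyte and neutrophil genes (10) gave 0 calls in Nipbl+/- brains by edgeR or DESeq2, 0 of them at an unadjusted p below 0.05 (1 higher without WT replicate 2), and 1 in double heterozygotes, Ltf, higher by 1.27, with a sum that never exceeded 6.77 CPM. Of 8 choroid plexus genes, Otx2 was higher in Nipbl+/- (0.23) and double heterozygous brains (0.25). In Nipbl+/- brains the count of higher choroid plexus genes was 0 in the low mt-Nd3 set and without WT replicates 1, 2 or 4 or Nipbl+/- replicates 1 or 3, and without WT replicate 1 Ttr and Folr1 were called lower. The part of these cell types in the values of the border macrophage genes was not tested.

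The genes next to Cd163 on chromosome 6 were read for comparison. The 3 nearest tested genes at higher coordinates were Pex5 (66.3 kb away), Clstn3 (100 kb) and C1rl (163 kb). Pex5, a peroxisomal import receptor, gave 0.10 (SE 0.0362, adjusted p = 0.110 by edgeR) in Nipbl+/- brains, and Clstn3, a synaptic calsyntenin, gave -0.07 (SE 0.0417). C1rl, a complement C1r relative, was scarce, with a WT mean of 7.24, and gave -1.08 with an SE of 0.546 (adjusted p = 0.288). The nearest at lower coordinates were the lectin genes Clec4d, Clec4n and Clec4a2, 1029 to 1161 kb away, with WT means of 1.18, 5.05 and 12.05. None of the 6 was called against WT in the 3 mutant groups by edgeR, with the scarce ones measured only loosely (SE of 0.321 to 1.17).

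Likeness to Cd163 was read over the 21 libraries. Among 17302 genes of at least 1 CPM on average, the log2 levels with the highest Pearson r to Cd163 were those of St6galnac5 (0.94), Chst2 (0.93), Tafa2 (0.93), 4933404O12Rik (0.93) and Rgs6 (0.93). Ms4a7 (0.73) and Cbr2 (-0.13) lay under 1 CPM and were not ranked, and Ms4a7 had the highest r of the 7 members. Of those ranked, Mrc1 reached 0.60 at rank 1366, Stab1 0.47, Pf4 0.29, F13a1 0.16 and Lyve1 0.15. St6galnac5, a brain sialyltransferase, gave log2 fold changes of -0.35 in Nipbl+/- and -0.28 in double heterozygous brains. These coefficients describe libraries that share genotypes, and a gene that differs by genotype gives a high r for that alone.

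After group means were subtracted, the nearest genes were Pank1 (0.86), Gm32444 (0.83), Myof (0.83), Col6a4 (0.82) and Trpc1 (0.81), with Lyve1 at 0.47 and Mrc1 at 0.33. Within genotypes, Mrc1, Lyve1, Pf4 and F13a1 gave r from 0.43 (Lyve1 with Pf4) to 0.79 with each other. The r was 0.79 for Mrc1 and F13a1, 0.78 for Pf4 and F13a1, 0.71 for Mrc1 and Lyve1, and 0.64 for both Mrc1 with Pf4 and Lyve1 with F13a1. Ms4a7 gave 0.57 with Pf4, 0.48 with F13a1, 0.42 with Mrc1 and 0.27 with Lyve1. Cd163 with F13a1 gave 0.23 and with Pf4 gave 0.03. Cd163 had 23 to 36 raw counts in Nipbl+/- and 19 to 59 in double heterozygous libraries, so counting noise may lower its r. Cbr2, at about 20 counts, gave no r above 0.31 with any member.

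**Figure D5:**
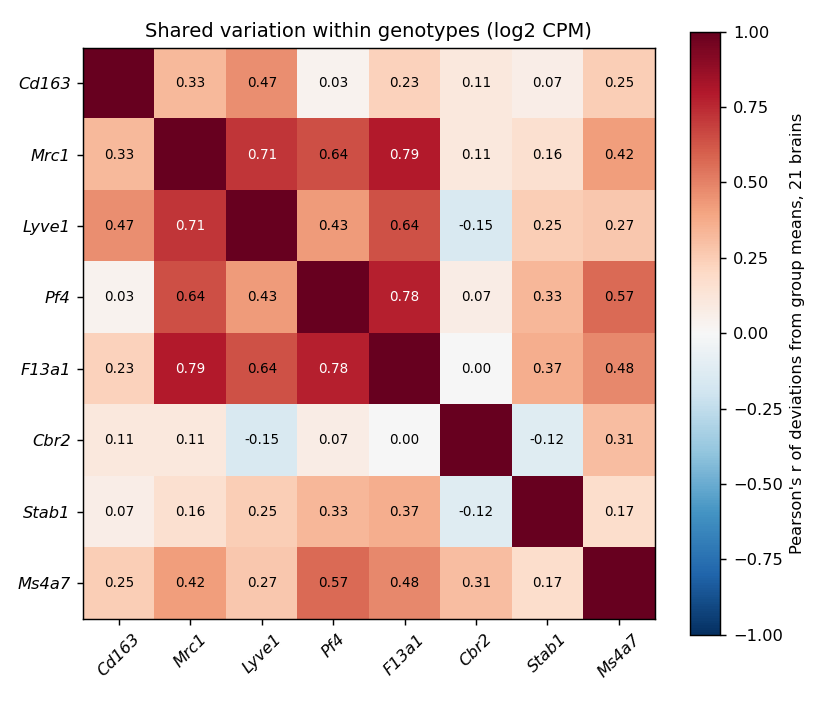
Pearson's r between pairs of the 8 genes (both axes) over 21 brains, from log2 CPM with each genotype's mean subtracted, coloured from -1 (blue) to 1 (red). Mrc1, Lyve1, Pf4 and F13a1 reach 0.43 to 0.79 with each other, while Cd163 stays between 0.03 and 0.47 with the other 7.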

How the data were processed

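Whole-brain poly(A) RNA of 21 female E17.5 embryos had been sequenced as paired-end reads from Illumina RNA Sample Prep V2 libraries. The deposited values are raw counts per gene, which the authors made with cutadapt 2.4, STAR 2.5.3a (mm10, GRCm38.p6) and featureCounts of Subread 1.6.4. The strand setting and the annotation release are not given in the sources used here, so reads of overlapping genes may be shared or lost. A further Nipbl+/- library, which the authors set aside for poor reads, was not analysed here.

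A gene was kept where its normalized counts reached a sum of 10 across libraries. Each comparison was fitted on its own libraries with edgeR 4.0.16 (R 4.3.3, TMM, quasi-likelihood F test), and p-values were adjusted over all 30553 genes by the Benjamini-Hochberg method at a threshold of 0.10. The authors used DESeq2; DESeq2 1.42.0 served here as an alternative, beside its size factors, other count filters, a threshold of 0.05, all 4 groups in 1 fit, mt-Nd3 sets (divided at 20 counts), a replicate block and leaving out each library. The scripts were tested on simulated data. Libraries of a group were distinct (chi-square per degree of freedom of at least 2.41). Labels give replicate numbers and no litters, so p-values measure the spread between these embryos. Comparisons against WT share the WT libraries.

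The 8 genes and the 16 gene lists were chosen with earlier results of these data known. The text names the 8 genes, Wapl and Nipbl, up to 4 called genes of each list with the largest changes, the 5 genes nearest to Cd163 by r on each measure and its 3 nearest tested neighbours on each side. Uncalled list genes (Folr2, Clec10a, the Ms4a relatives, Tmem119, Msr1, Stab2, Hmox1, Hp, Csf1, Fkbp5 and Tsc22d3) and called genes beyond the 4 were named after their values were seen. Some genes of these lists are counted but not reported here by name. Gene positions come from the RefSeq annotation of GRCm38.p6.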

Additional observations from a re-analysis of the deposited data

Results flagged for a closer look

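Mrc1 in WT replicate 2 stood apart from the other WT libraries. It had 858.9 normalized counts, and the other 4 had 724.5 to 758.9. The gap to the next library was 0.744 of the group's range, above the 95% critical value of Dixon's test for 5 samples. It was the 1 flag among 24 groups of at least 5 libraries tested for the 8 genes, and chance flags about 1 in 20 groups. Mrc1 was lower in Nipbl+/- brains whichever single library was left out, this one included.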

How the results depend on the processing

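Replicate numbers showed no clear pairing of the embryos. Of 25 same-numbered pairs, 7 had deviations from their group means correlated above 0.1 (r from -0.21 to 0.37). Of 50 samples, 13 correlated best with their own number. In each group the low mt-Nd3 libraries carry the lowest replicate numbers, so the replicate block also partly divides the mt-Nd3 sets. With the replicate block, 1 of the 7 genes was called in Nipbl+/- against WT (Mrc1) in place of 2, since Ms4a7 reached adjusted p = 0.104 at -1.05. The block also turned Ms4a7 in Wapl delta/+ against WT to -0.027. The 2 calls in Nipbl+/- against WT became 1 among low mt-Nd3 libraries alone and 1 to 3 with single libraries left out. The 3 arose without Nipbl+/- replicate 1, where F13a1 was called at -0.26 (adjusted p = 0.0779), and the 1 without Nipbl+/- replicate 3. The 1 call in double heterozygotes against Wapl delta/+ brains became 0 at a threshold of 0.05 and 0 within either mt-Nd3 set, and ranged from 0 to 1 with single libraries left out. The cause was not tested. In the other comparisons the count stayed at 0 under every alternative run.

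Directions turned only for changes that were not called. With single libraries left out, Nipbl+/- against WT ranged from -0.071 to 0.10 for Cbr2, -0.29 to 0.0087 for Pf4, -0.26 to 0.015 for F13a1 and -0.13 to 0.013 for Stab1. F13a1 ranged from -0.049 to 0.0024 in double heterozygotes against WT and from -0.039 to 0.23 against Nipbl+/-. The interaction ranged from -0.14 to 0.13 for Pf4 and from -0.060 to 0.26 for Cbr2. For Pf4 it was also 0.025 by DESeq2, 0.026 with its size factors, 0.021 without a filter, 0.027 with a mean of at least 10 counts, 0.027 with the block and 0.13 in the low set, where Cbr2 gave -0.58. In the high set, Wapl delta/+ against WT gave -0.26 for Cbr2 and -0.16 for Ms4a7, and double heterozygotes against WT gave -0.013 for Lyve1 and 0.052 for F13a1. In the low set, double heterozygotes against Wapl delta/+ gave 0.0083 for Pf4 and -0.41 for Cbr2. Cd163 kept its direction in all fits. Counts over all genes moved more. Nipbl+/- against WT called 3422 genes, 1659 in 1 fit of all 4 groups, 1893 with the block, 1881 in the low set and 1828 to 4786 with single libraries left out (lowest without Nipbl+/- replicate 1). Wapl delta/+ against WT called 677, then 7 in 1 fit, 1991 with the block, 47 and 278 in the low and high sets and 9 (without WT replicate 2) to 1534 (without Wapl delta/+ replicate 2). Double heterozygotes against WT called 1001, then 602, 538, 672 and 1 in the same order, and 454 (without WT replicate 4) to 2504 (without replicate 5 of the double heterozygotes). Against Wapl delta/+ they called 311, 502 by DESeq2, 576 in 1 fit, 24 and 29 in the low and high sets and 163 to 449 with single libraries left out. Against Nipbl+/- they called 2, 5 by DESeq2, 59 with the block and 1 in the low set, and the interaction called 0, 18 by DESeq2 and up to 945 (without replicate 6 of the double heterozygotes). Low counts limit Cbr2 and Ms4a7 most, and the Nipbl+/- group has 3 libraries, 1 of which decides part of the macrophage calls. List counts under other settings were added after seeing the data.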
